A study of Mus musculus with 12 samples.

Results

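The Trav4 family is a set of closely related variable (Vα) segments of Tcra, the mouse gene for the alpha chain of the T cell receptor. Its members were taken as every table row named TRAV4-n or TRAV4D-n, with or without a DV suffix, with all Traj partners, which gave 6 of the 85 Trav rows listed in any table: TRAV4D-2, TRAV4D-3, TRAV4D-4, TRAV4-2, TRAV4-3 and TRAV4-4/DV10. Of these, 5 are among the 79 rows that all 12 tables list and entered the fits. TRAV4D-2 is listed in 11 tables, not in that of KO 48 h replicate 2, and is described without a test. The libraries hold Tcra transcripts, copied by RACE with a template switch and a Trac primer, of thymocytes positive for both CD4 and CD8 (DP) and negative for CD3e, sorted before selection of the receptor. KO mice were homozygous for DPASEKO and WT mice homozygous for the wild-type allele, and all were 4 to 6 weeks old. Mice of both genotypes carried TcrdCreER and Rosa26ZsG/+ (the strain label gives Rosa26ZsG/ZsG) on a C57BL/6J background, with the Tcra-Tcrd locus of strain 129. Each genotype was sampled at steady state without tamoxifen, and as ZsGreen-positive cells 24 h and 48 h after 1 mg of tamoxifen, with 2 libraries per group.

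A Tcra gene is made when the RAG recombinase joins a Vα segment to a Jα segment. On the same allele, a further joining can replace the first with a Vα segment farther from the Jα array and a Jα segment nearer its 3' end. Jα numbers fall along the array, so a high mean partner number stands for joints at the 5' end of the array and a low one for joints at its 3' end. Much of the mouse Vα array arose by duplication of a block of segments, and a name with D marks a copy in a duplicated block. A segment with a DV suffix can also be used in delta chains of gamma-delta T cells. DPASE is known in the field as an element that regulates Rag1 and Rag2.

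In the C57BL/6J reference (GENCODE M21, build GRCm38), all 6 members lie on the plus strand of chromosome 14, in the order of the table rows. The gene Trav4d-2, annotated as a pseudogene, lies at chr14:52710913-52711402, Trav4d-3 at chr14:52899969-52900470 and Trav4d-4 at chr14:52990866-52991389. Trav4-2 lies at chr14:53418349-53418873, Trav4-3 at chr14:53598828-53599410 and Trav4-4-dv10, nearest to the Jα array, at chr14:53683647-53684177. Each has 2 exons, and exon 2, which encodes most of the variable domain, has 279 bases. Copies of the same number are near-identical there, which is why the exon 2 sequences of the D copies and their partners are shown: capitals mark the bases that differ between the copies of a pair, 7 for Trav4d-3 and Trav4-3 (97.5% identity) and 8 for Trav4d-4 and Trav4-4-dv10 (97.1% identity). They span chr14:52900192-52900470, chr14:53599132-53599410, chr14:52991111-52991389 and chr14:53683899-53684177, in the order printed.
Trav4d-3: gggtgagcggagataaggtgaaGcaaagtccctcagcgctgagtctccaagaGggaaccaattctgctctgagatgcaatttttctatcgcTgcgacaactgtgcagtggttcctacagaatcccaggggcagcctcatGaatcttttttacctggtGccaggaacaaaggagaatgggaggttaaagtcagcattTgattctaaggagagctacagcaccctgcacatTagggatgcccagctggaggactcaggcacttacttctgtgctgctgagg
Trav4-3: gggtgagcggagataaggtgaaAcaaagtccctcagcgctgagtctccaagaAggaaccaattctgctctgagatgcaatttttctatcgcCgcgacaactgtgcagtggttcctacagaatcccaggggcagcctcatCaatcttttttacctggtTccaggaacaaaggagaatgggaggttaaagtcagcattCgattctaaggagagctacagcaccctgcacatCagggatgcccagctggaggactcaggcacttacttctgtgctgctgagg
Trav4d-4: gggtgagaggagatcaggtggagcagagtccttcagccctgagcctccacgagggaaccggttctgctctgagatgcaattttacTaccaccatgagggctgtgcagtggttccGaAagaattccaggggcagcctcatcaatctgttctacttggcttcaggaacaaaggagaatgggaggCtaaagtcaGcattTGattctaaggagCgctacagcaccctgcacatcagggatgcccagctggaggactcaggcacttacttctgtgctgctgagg
Trav4-4-dv10: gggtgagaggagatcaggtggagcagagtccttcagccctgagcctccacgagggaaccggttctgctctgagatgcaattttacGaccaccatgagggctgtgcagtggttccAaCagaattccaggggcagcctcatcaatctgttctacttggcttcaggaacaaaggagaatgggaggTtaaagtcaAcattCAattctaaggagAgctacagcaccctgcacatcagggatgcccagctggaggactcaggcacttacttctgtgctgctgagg
Trav4d-2 and Trav4-2 also differ at 7 of these 279 bases, whereas segments of different numbers are 79.9% to 89.2% identical. The reference holds further copies, Trav4n-3 and Trav4n-4, whose exon 2 is identical to that of Trav4d-3 and of Trav4d-4, and which are not analysed here as rows of their own. Reads of Trav4d-3 and Trav4n-3, or of Trav4d-4 and Trav4n-4, could not be told apart in exon 2 of this reference, and how the authors assigned reads to copies is not given in the sources used here. Values of a single copy are uncertain to that extent, and bases that differ in the strain 129 locus were not analysed here.

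The depth in reads is unknown. The fractions of 8 tables summed to 0.995 to 0.9982, while those of replicate 2 of both genotypes at 24 h and 48 h summed to 1.9736 to 1.9851. These 4 coarse tables had 41.7% to 55.2% of pairs at 0, against 1.18% to 14.3% in the 8 finer ones. Each row is given as its share of its own table's total. The pairs that mark invariant NKT cells, TRAV11 with TRAJ18, and MAIT cells, TRAV1 with TRAJ33, held at most 0.0462% and 0.0503% of any library. The tables hold no value for DPASE or the Rag genes, so the data offer no check of the genotype. Whether the libraries of a group come from separate mice is not said in the labels, and p-values then measure only a spread between libraries that may be technical.

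The part of the repertoire held by the family overlapped between genotypes. Its listed members (5 in KO 48 h replicate 2, 6 elsewhere) summed to 9.78% and 9.33% of the repertoire in KO and 9.08% and 9.74% in WT libraries at steady state. The sums were 9.9% and 11.3% in KO and 10.3% and 9.29% in WT at 24 h, and 9.18% and 12.8% in KO and 9.47% and 10% in WT at 48 h. No sampling set the genotypes apart. In steady-state KO libraries the order of the members was TRAV4-3 (2.77 ± 0.166%), TRAV4-4/DV10 (2.21 ± 0.249%), TRAV4-2 (2.19 ± 0.0146%), TRAV4D-4 (1.18 ± 0.0201%), TRAV4D-3 (0.893 ± 0.0614%) and TRAV4D-2 (0.312 ± 0.0246%; SD, n = 2). In steady-state WT libraries it was TRAV4-3 (2.34 ± 0.122%), TRAV4-2 (2.17 ± 0.235%), TRAV4-4/DV10 (1.85 ± 0.0167%), TRAV4D-4 (1.5 ± 0.148%), TRAV4D-3 (1.18 ± 0.157%) and TRAV4D-2 (0.366 ± 0.0643%; SD, n = 2). TRAV4-4/DV10 and TRAV4-2 overlapped in KO, and TRAV4-3 and TRAV4-2 overlapped in WT. The D copies stood below the copies without D in every steady-state library.

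Among the D copies, TRAV4D-4 was lower in KO than in WT without overlap at every sampling. It took 1.16% and 1.19% of the repertoire in KO and 1.4% and 1.61% in WT libraries at steady state, 0.437% and 0.276% in KO and 0.652% and 0.482% in WT at 24 h, and 0.943% and 0.678% in KO and 1.55% and 1.13% in WT at 48 h (replicates 1 and 2 in each). Both KO libraries stood below both WT libraries at all 3 samplings in 2.53% of the 79 rows. TRAV4D-3 took 0.85% and 0.937% in KO and 1.07% and 1.29% in WT at steady state, 0.717% and 1.8% in KO and 0.688% and 1.18% in WT at 24 h, and 0.576% and 2.26% in KO and 0.963% and 2.62% in WT at 48 h. KO was below WT at steady state and overlapped it after tamoxifen, where the coarse replicate 2 was the high library in both genotypes. TRAV4D-2 was the scarcest member, at 0.294% and 0.329% in KO and 0.32% and 0.411% in WT at steady state, 0.178% and 0.0416% in KO and 0.196% and 0.0578% in WT at 24 h, and 0.244% in the single KO table that lists it and 0.35% and 0.208% in WT at 48 h. The genotypes overlapped at each sampling.

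Among the copies without D, TRAV4-4/DV10 and TRAV4-3 were higher in KO at steady state and 48 h, and TRAV4-2 was on no constant side. TRAV4-4/DV10, the member nearest to the Jα array, took 2.38% and 2.03% in KO and 1.86% and 1.83% in WT libraries at steady state, 4% and 5.72% in KO and 3.96% and 4.97% in WT at 24 h, and 2.54% and 5.36% in KO and 1.86% and 2.34% in WT at 48 h. KO was above WT without overlap at steady state and at 48 h. TRAV4-3 took 2.89% and 2.66% in KO and 2.43% and 2.26% in WT at steady state, 3.33% and 3.25% in KO and 3.29% and 2.3% in WT at 24 h, and 2.99% and 3.93% in KO and 2.43% and 2.84% in WT at 48 h, with KO again above WT at steady state and 48 h. At steady state 29.1% of the 79 rows had both KO libraries above both WT libraries and 38.0% had both below, and at 48 h 13.9% and 6.33% did. TRAV4-2 took 2.2% and 2.18% in KO and 2.01% and 2.34% in WT at steady state, 1.24% and 0.176% in KO and 1.52% and 0.301% in WT at 24 h, and 1.88% and 0.566% in KO and 2.31% and 0.868% in WT at 48 h. Its genotypes overlapped throughout, and after tamoxifen replicate 2 was the low library of every group.

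**Figure D1:**
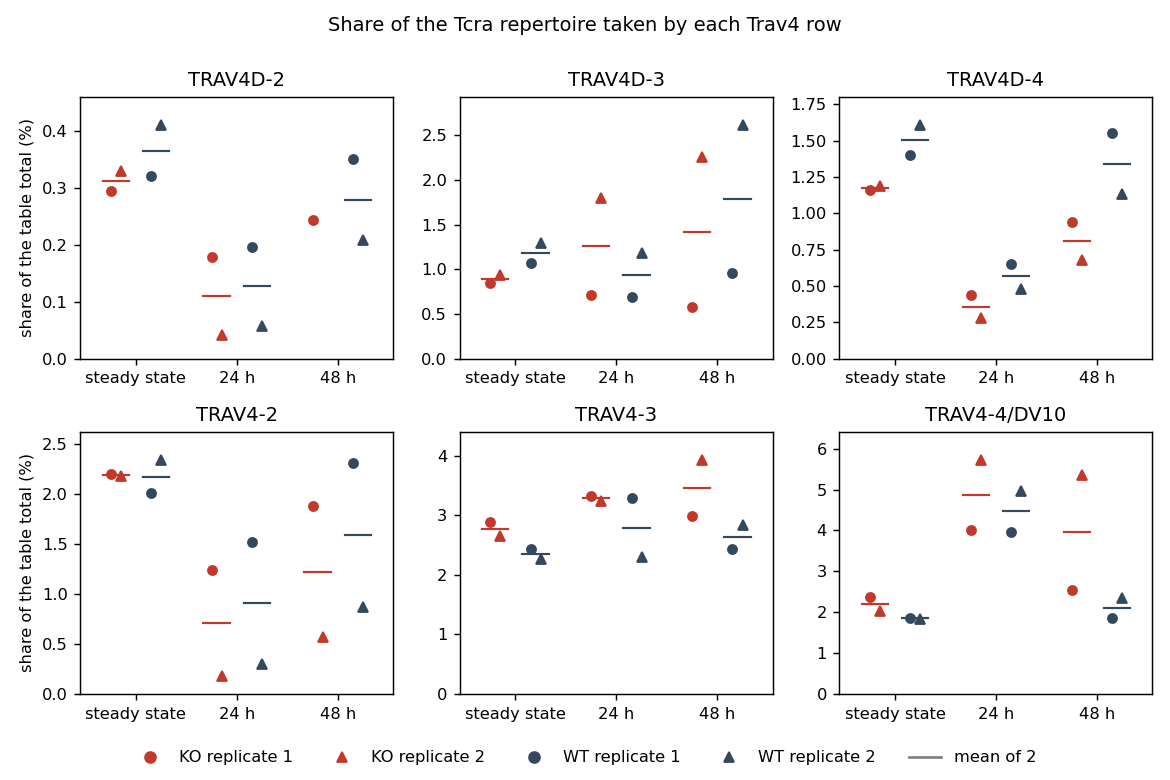
Share of each Trav4 row in percent of its table's total (y, linear from 0, a scale per panel) at steady state, 24 h and 48 h after tamoxifen (x), with KO in red left of WT in blue, replicate 1 as circles, replicate 2 as triangles and a bar at the mean of 2. TRAV4D-4 is lower in both KO libraries than in both WT libraries at each sampling, and after tamoxifen replicate 2 is above replicate 1 for TRAV4D-3 and below it for TRAV4-2 in both genotypes.

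No share difference between genotypes passed the test without a block. In limma, fitted to log2(percent + 0.01) over all 79 rows with Benjamini-Hochberg adjustment at 0.05, 0 of 5 members passed in KO minus WT at any sampling or in the mean of the 3 differences, where 0.00% of all rows passed. At an unadjusted p below 0.05, 1 of 5 members and 5 of 79 rows passed in the mean of the 3. The mean difference was -0.58 (SE 0.21) for TRAV4D-4, -0.18 (SE 0.44) for TRAV4D-3, -0.32 (SE 0.62) for TRAV4-2, 0.29 (SE 0.18) for TRAV4-3 and 0.39 (SE 0.24) for TRAV4-4/DV10, against a median of -0.10 over all 79 rows, and the smallest adjusted p of the family was 0.671, for TRAV4D-4. Centring each library moved the median of all rows at 24 h to 0.02, against -0.10 uncentred, and left the sign of every member's KO minus WT difference as it was. Replicate 1 minus replicate 2 correlated between the genotypes over the 79 rows, at 0.72 at steady state and 0.93 at both 24 h and 48 h, as a description of rows that share libraries. The same fit was therefore run with the replicate number as a block within each sampling, a setting chosen after seeing the data. With that block TRAV4D-4 (adjusted p = 0.00525) and TRAV4-2 (0.0432) were lower in KO and TRAV4-3 (0.0419) and TRAV4-4/DV10 (0.0415) higher in the mean of the 3, so 4 of 5 members passed, where 43.0% of all rows did. TRAV4D-3 did not pass (adjusted p = 0.24). With the block TRAV4D-4 also passed at 24 h (-0.68, adjusted p = 0.0423) and 48 h (-0.72, adjusted p = 0.0278), and TRAV4-4/DV10 at 48 h (0.82, adjusted p = 0.0324), where 5.06% and 35.4% of rows passed at 24 h and at 48 h. The 8 finer libraries alone hold 1 library per group at 24 h and 48 h, so their spread comes from steady state only. In them the mean of the 3 was -0.54 for TRAV4D-4 and -0.35 for TRAV4D-3, given as effect sizes without a test.

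The makeup of the family can be read from the ratio of a D copy to its partner of the same number, which the scaling of a table leaves as it is. The TRAV4D-4 to TRAV4-4/DV10 ratio was 0.489 and 0.587 in KO and 0.752 and 0.876 in WT libraries at steady state, 0.109 and 0.0482 in KO and 0.165 and 0.0971 in WT at 24 h, and 0.371 and 0.127 in KO and 0.836 and 0.484 in WT at 48 h. KO was lower than WT without overlap at steady state and 48 h, and lower within each replicate number at 24 h. How many copy pairs of other families were apart in this way was not counted. The TRAV4D-3 to TRAV4-3 ratio was 0.294 and 0.353 in KO and 0.439 and 0.57 in WT at steady state, 0.216 and 0.556 in KO and 0.209 and 0.511 in WT at 24 h, and 0.193 and 0.575 in KO and 0.397 and 0.922 in WT at 48 h. Here the genotypes were apart without overlap at steady state, and at 48 h KO was lower within each replicate number. The TRAV4D-2 to TRAV4-2 ratio stayed between 0.129 and 0.24 in the 11 libraries that list both.

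Over 33 pairs of a D copy and its partner, the log2 ratio of TRAV4D-4 to TRAV4-4/DV10 differed by -0.97 (SE 0.34, adjusted p = 0.158) and that of TRAV4D-3 to TRAV4-3 by -0.47 (SE 0.41, adjusted p = 0.436) in KO minus WT, averaged over the 3 samplings. Neither passed in limma, and 0.00% of the 33 pairs did. With the replicate block within each sampling both were lower in KO, with adjusted p-values of 7.54e-09 and 0.00221, where 69.7% of pairs passed. Both had an SE of 0.14 there, as limma's empirical Bayes step shares the spread over the 33 pairs, all from the same libraries. The p-values with the block therefore rest on more than the 3 residual degrees of freedom of a pair. They overstate the evidence if pairs vary together. By sampling, the block gave a lower TRAV4D-3 to TRAV4-3 ratio in KO at steady state (-0.63, adjusted p = 0.0497) and 48 h (-0.86, adjusted p = 0.00159), but not at 24 h (0.08, adjusted p = 0.839). It gave a lower TRAV4D-4 to TRAV4-4/DV10 ratio at 24 h (-0.78, adjusted p = 0.0163) and 48 h (-1.54, adjusted p = 6.53e-08), and -0.60 at steady state, which did not pass (adjusted p = 0.0535). Of the 33 pairs, the steady-state fit with the block called 21.2%, the 24 h fit 9.09% and the 48 h fit 54.5%, and without it 0.00% passed at each. In the 8 finer libraries, with 1 library per group after tamoxifen, the mean of the 3 samplings is given without a test. It was -0.78 for TRAV4D-4 to TRAV4-4/DV10 and -0.54 for TRAV4D-3 to TRAV4-3. The listed D copies (TRAV4D-3 and TRAV4D-4 alone in KO 48 h replicate 2) together made up 23.6% and 26.4% of the family in KO and 30.7% and 33.9% in WT libraries at steady state, 13.4% and 18.8% in KO and 14.9% and 18.5% in WT at 24 h, and 19.2% and 23% in KO and 30.3% and 39.6% in WT at 48 h. The genotypes were apart at steady state and 48 h and overlapped at 24 h, and other families were not compared in this way.

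**Figure D2:**
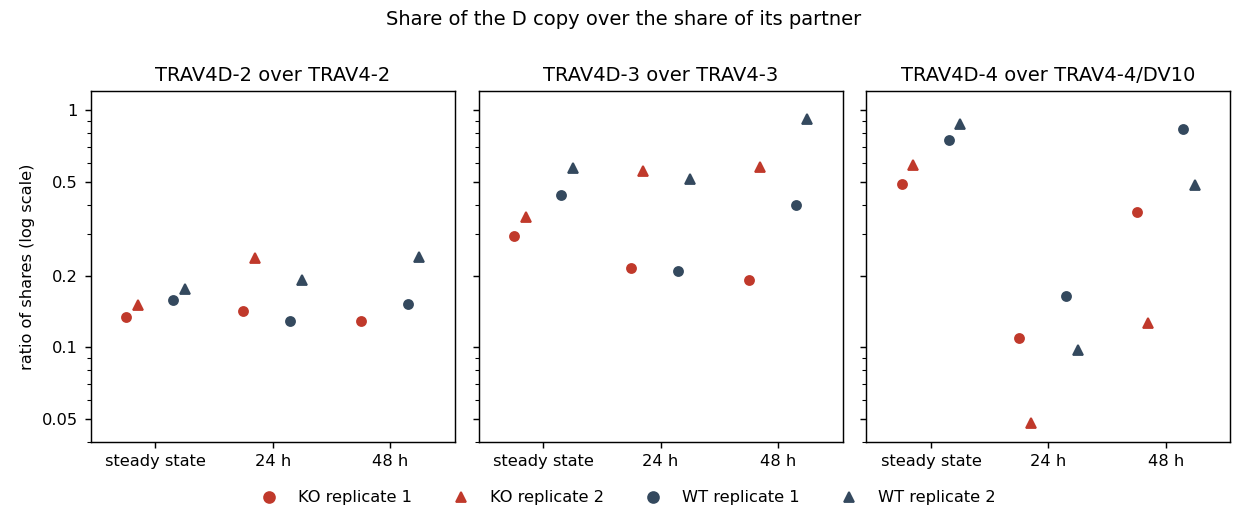
Ratio of the share of each D copy to the share of its partner of the same number (y, log scale) at steady state, 24 h and 48 h (x), with KO in red left of WT in blue, replicate 1 as circles and replicate 2 as triangles. The ratio of TRAV4D-4 to TRAV4-4/DV10 lies between 0.0482 and 0.165 in all 24 h libraries and is lower in KO than in WT within each replicate number.

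Every member was joined to Jα segments of higher number, nearer the 5' end of the array, in KO than in WT. The mean partner number of TRAV4D-3 was 32.1 and 30.5 in KO and 24.6 and 23.4 in WT libraries at steady state, 47.6 and 49.2 in KO and 41.9 and 42.8 in WT at 24 h, and 35.9 and 37.6 in KO and 27 and 30.8 in WT at 48 h. That of TRAV4D-4 was 29.9 and 29 in KO and 24.5 and 24.2 in WT at steady state, 40.8 and 47.2 in KO and 36.3 and 36.3 in WT at 24 h, and 33.2 and 32.6 in KO and 26.6 and 25.2 in WT at 48 h. In both, all KO libraries stood above all WT libraries of the same sampling. TRAV4D-2, the pseudogene, had 33.1 and 31.4 in KO and 26.7 and 24.9 in WT at steady state, 41.5 and 42.9 in KO and 39 and 39.9 in WT at 24 h, and 36 in 1 KO library and 27.7 and 35 in WT at 48 h. TRAV4-2 had 32.7 and 31.9 in KO and 27.9 and 27 in WT at steady state, 42.3 and 42.8 in KO and 37.9 and 40.5 in WT at 24 h, and 35.9 and 31.9 in KO and 29.1 and 29.8 in WT at 48 h. The order of the genotypes was the same in these rows. TRAV4-3 had 36.9 and 36.2 in KO and 34.6 and 34.3 in WT at steady state, 44 and 47.2 in KO and 39.4 and 43 in WT at 24 h, and 37 and 36.7 in KO and 33.6 and 34.1 in WT at 48 h. TRAV4-4/DV10 had 41.4 and 41.1 in KO and 39.6 and 39.3 in WT at steady state, 45.2 and 46.8 in KO and 42.2 and 43.4 in WT at 24 h, and 41.6 and 42.5 in KO and 38.9 and 38.3 in WT at 48 h. Its gap was small beside its level, but again without overlap, as in 68.4% of the 79 rows at all 3 samplings.

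**Figure D3:**
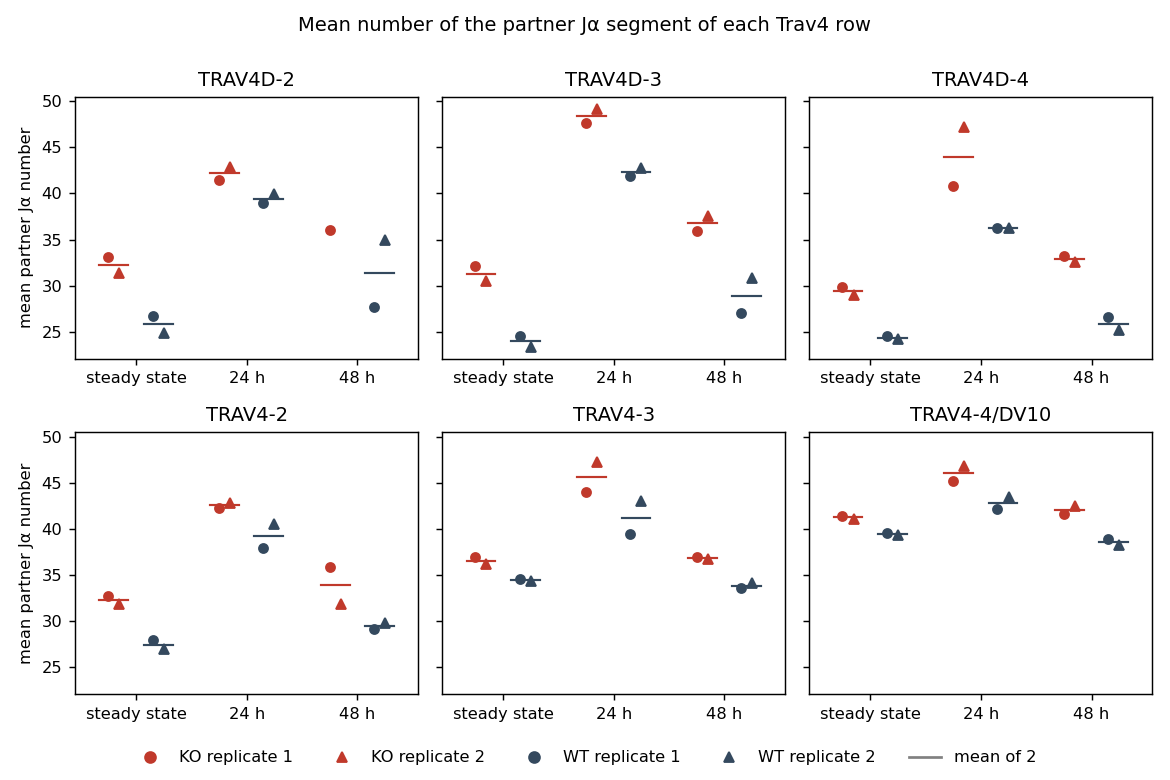
Mean number of the partner Jα segment of each Trav4 row (y, the same scale in all panels) at steady state, 24 h and 48 h (x), with KO in red left of WT in blue, replicate 1 as circles, replicate 2 as triangles and a bar at the mean of 2. KO lies above WT in every panel and sampling, and the gap is wide for TRAV4D-3, at 7.07 in the mean of the 3 samplings, and narrow for TRAV4-4/DV10, at 2.84.

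All 5 members passed when the KO minus WT differences of the 3 samplings were averaged, as did 93.7% of the 79 rows, whose median difference was 4.71. The difference was 7.07 (SE 0.83, adjusted p = 4.32e-05) for TRAV4D-3, 6.59 (SE 1.01, adjusted p = 0.00022) for TRAV4D-4, 4.21 (SE 0.83, adjusted p = 0.000939) for TRAV4-2, 3.19 (SE 0.82, adjusted p = 0.00424) for TRAV4-3 and 2.84 (SE 0.61, adjusted p = 0.00155) for TRAV4-4/DV10 in limma over all rows. In size these ranked 8, 14, 49, 62 and 66 of 79, so among these 5 the difference was smaller the nearer a member lay to the Jα array. TRAV4D-2, the farthest member and not tested, did not follow this order. Its group means were 32.3 in KO and 25.8 in WT at steady state and 42.2 and 39.4 at 24 h. At 48 h they were 36 in 1 KO library and 31.4 in WT. That gap was narrower than the gap of TRAV4D-3 at each sampling. The same trend held over all 79 rows, with a Spearman's rho of -0.77 between the difference and the rank in the row order. Each passed with any 1 of the 12 libraries left out, with values of 6.44 to 7.7 for TRAV4D-3 and 2.57 to 3.11 for TRAV4-4/DV10.

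Within a sampling, 3 of 5 members passed at steady state (48.1% of all rows), 4 at 24 h (46.8%) and 4 at 48 h (69.6%). At steady state TRAV4D-3 (7.29, adjusted p = 0.00341), TRAV4D-4 (5.08, 0.0334) and TRAV4-2 (4.87, 0.0196) were higher in KO, while TRAV4-3 (2.11, 0.196) and TRAV4-4/DV10 (1.83, 0.149) did not pass. At 24 h TRAV4-2 did not pass (3.35, adjusted p = 0.0683) and at 48 h TRAV4-3 did not (3.0, adjusted p = 0.0815). Single libraries decided several of these calls. At steady state TRAV4D-4 and TRAV4-2 did not pass with any 1 of the 4 steady-state libraries left out, with values of 4.59 to 5.56 and 4.44 to 5.3. At 24 h the call of TRAV4D-3 was lost without KO replicate 2 (5.29) or WT replicate 1 (5.56), that of TRAV4D-4 likewise (4.51 and 7.71), that of TRAV4-3 likewise (2.86 and 2.68) and that of TRAV4-4/DV10 likewise (2.4 and 2.58), the last also with any 1 steady-state library left out (3.2). With WT 24 h replicate 2 left out, or either KO 48 h library, TRAV4-2 passed at 24 h (4.69 and 3.35). At 48 h TRAV4-2 was not called without KO replicate 1 (2.41) or WT replicate 1 (4.06), nor TRAV4-4/DV10 without KO replicate 2 (3.06).

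The position of a row went with its mean partner number. Over the 79 rows, Spearman's rho of the rank in the row order with the mean partner number was 0.75 and 0.77 in KO and 0.83 and 0.84 in WT libraries at steady state, 0.27 and 0.34 in KO and 0.45 and 0.44 in WT at 24 h, and 0.53 and 0.48 in KO and 0.78 and 0.7 in WT at 48 h. These describe rows that share libraries and carry no test. TRAV4D-3 and TRAV4D-4 stood at ranks 26 and 35 of 85, TRAV4-2 at 44, TRAV4-3 at 61 and TRAV4-4/DV10 at 70. TRAV4D-2 stood at rank 9. In WT at steady state its mean partner number (25.8) was nevertheless above those of TRAV4D-3 (24) and TRAV4D-4 (24.4).

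**Figure D4:**
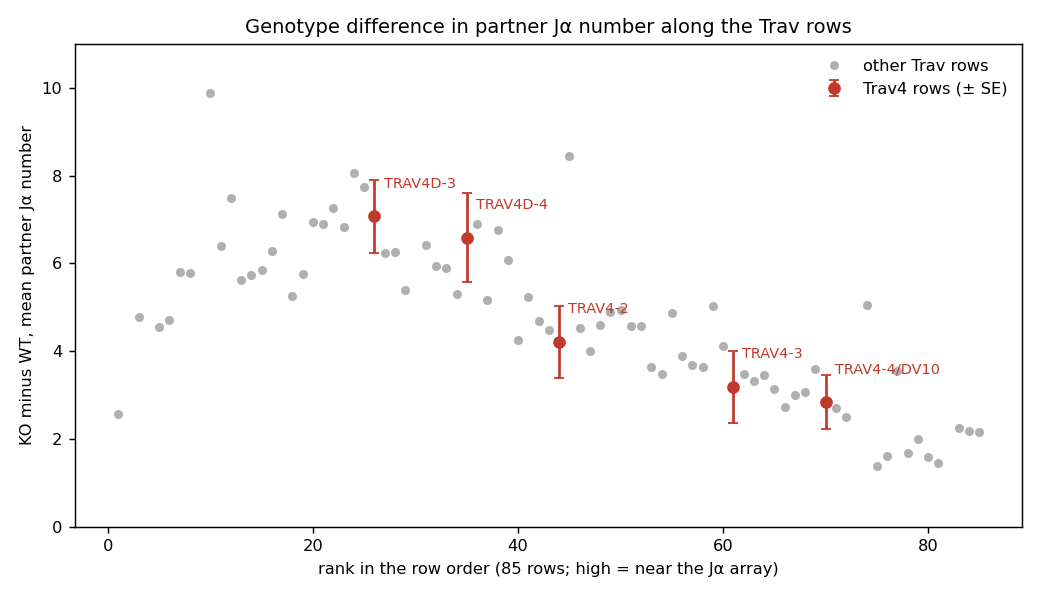
KO minus WT difference in mean partner Jα number, as the mean of the 3 samplings (y), against the rank of the row (x, high ranks near the Jα array), for the 5 tested Trav4 rows in red with their SE and the other Trav rows in grey. The Trav4 differences go from 7.07 at rank 26 to 2.84 at rank 70 and lie within the range of the other rows, 1.39 to 9.89.

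Copies that differ at few bases had different partners and different genotype gaps. In a comparison chosen after seeing the data, the gap in partner number between genotypes was larger in the D copy than in its partner by 3.88 (SE 0.88, adjusted p = 0.00582) for TRAV4D-3 over TRAV4-3 and by 3.75 (SE 0.89, adjusted p = 0.00682) for TRAV4D-4 over TRAV4-4/DV10 in the mean of the 3 samplings. Both passed in limma over 33 copy pairs, where 54.5% did, and both passed with any 1 library left out. At a single sampling only TRAV4D-3 at 48 h passed (4.86, adjusted p = 0.0305; 36.4% of pairs), and not without KO 48 h replicate 2 (3.8), WT 48 h replicate 1 (3.19) or either KO steady-state library (4.86, adjusted p = 0.0505). At steady state the difference was 5.18 (adjusted p = 0.0505) for TRAV4D-3 and 3.25 (adjusted p = 0.123) for TRAV4D-4, and the first passed with any 1 of the 4 libraries of 48 h left out. At 24 h it was 1.58 and 4.51 (adjusted p = 0.721 and 0.161), and TRAV4D-4 passed only without KO 24 h replicate 1 (6.91), while at 48 h TRAV4D-4 (3.51, adjusted p = 0.0875) passed without either KO 24 h library.

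The windows of the Jα array show which partners made up these means. Of the TRAV4D-3 rearrangements, 31.1% and 34.4% in KO and 50.1% and 52.6% in WT libraries used the 14 segments of the 3' window (Traj21 to Traj2) at steady state, and 17.8% and 11.5% in KO and 41.8% and 26% in WT did at 48 h. Its 7 most 3' partners, Traj11 to Traj2, held 10.9% and 10.4% in KO and 24.7% and 25.7% in WT at steady state. KO was below WT without overlap in each case, and so it was over all Trav rows. There the 3' window held 17.6% and 20.4% in KO and 30.2% and 33.8% in WT at steady state. At 48 h it held 10.5% and 10.6% in KO and 26.8% and 21.7% in WT. The most 3' partners held 5.31% and 6.1% in KO and 13.6% and 15.6% in WT at steady state. For TRAV4-4/DV10 the 3' window held 7.37% and 7.77% in KO and 11.1% and 10.1% in WT at steady state, and the 13 segments of the 5' window (Traj58 to Traj42) held 58.6% and 56.9% in KO and 53.4% and 51% in WT. At 24 h the 5' window held 78.2% and 82.3% of TRAV4D-3 in KO and 57.1% and 61.4% in WT, and 71.2% and 78.2% of TRAV4-4/DV10 in KO and 59.5% and 65.5% in WT. Over all Trav rows it held 72.4% and 77.5% in KO and 57.5% and 63.1% in WT. TRAV4-3, the partner copy of TRAV4D-3, had 64.7% and 73.8% there in KO and 47.2% and 61.4% in WT, and TRAV4D-4, the partner copy of TRAV4-4/DV10, had 55.6% and 89.4% in KO and 36% and 37.6% in WT. In KO at 24 h TRAV4D-3 was thus above TRAV4-3 in both libraries, while TRAV4D-4 was below TRAV4-4/DV10 in replicate 1 and above it in replicate 2. That replicate 2 is coarse, with 31 of the 43 partners of TRAV4D-4 at 0. For TRAV4D-4 the middle window (Traj40 to Traj22) held 51.6% and 52.8% in KO and 44.3% and 45.4% in WT at steady state. In WT its 3' window held as much, at 44.1% and 43.5%. The middle window held 48.5% and 48% of TRAV4-2 in KO and 43.9% and 43.6% in WT. For TRAV4D-3 it was lower, at 37% and 39.5% in KO and 31% and 31.4% in WT.

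**Figure D5:**
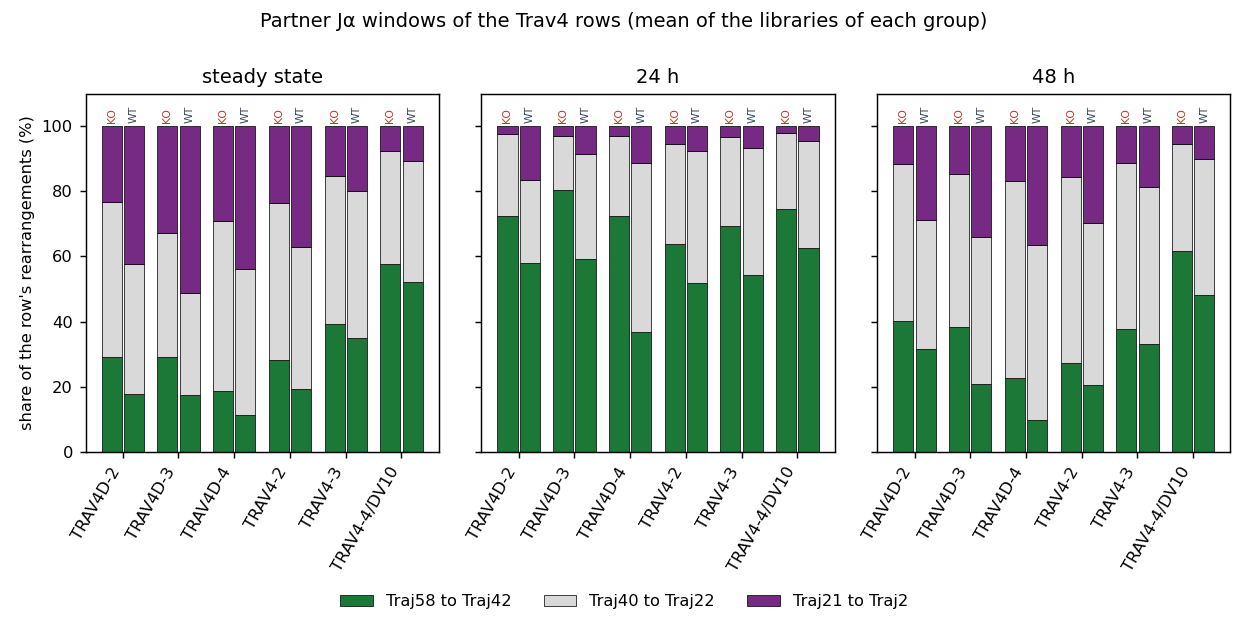
Share of each Trav4 row's rearrangements (y, percent) joined to the 5' window (green), the middle window (grey) and the 3' window (purple) of the Jα array, as the mean of the libraries of each group (KO left of WT; 1 KO library for TRAV4D-2 at 48 h), at steady state, 24 h and 48 h. The purple part is smaller in KO than in WT for every row in these means. For TRAV4D-2 at 24 h that rests on the coarse replicate 2 (0 in KO, 28.5% in WT), since replicate 1 had 4.61% in KO and 4.36% in WT. The 5' window of TRAV4D-3 held 78.2% and 82.3% in KO and 57.1% and 61.4% in WT at 24 h.

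Single pairs of a Trav4 member and a Traj partner were tested among 3397 pairs, 215 of them of the family. Averaged over the 3 samplings, 5 of the 215 passed, against 1.09% of all pairs, and all were lower in KO. TRAV4D-3 with Traj2, the last Jα segment of the lists, took 0.00677% and 0.00572% in KO and 0.0416% and 0.0519% in WT libraries at steady state, was listed at 0 in both KO libraries and at 0.00512% and 0.00422% in WT at 24 h, and took 0.00085% and 0 in KO and 0.0197% and 0.0285% in WT at 48 h. KO lay below WT at steady state and 48 h. At 24 h the 0 of KO replicate 2 cannot be set against WT, since the smallest share above 0 in that table is 0.00578%. The mean difference, which takes that 0 as it stands, was -1.35 (SE 0.13, adjusted p = 0.0091) in log2(percent + 0.01), a scale on which changes of such low shares come out too small. At steady state alone it was -1.80 (adjusted p = 0.032), the 1 family pair among 0.294% of all pairs that passed there. TRAV4-3 with Traj2, its partner copy, took 0.0121% and 0.0141% in KO and 0.0412% and 0.0474% in WT at steady state, with a mean difference of -1.14 (SE 0.20, adjusted p = 0.047). TRAV4D-4 was lower with Traj21 (-0.94, adjusted p = 0.026), Traj13 (-1.17, adjusted p = 0.026) and Traj12 (-0.83, adjusted p = 0.0465). Its pair with Traj21 took 0.0317% and 0.0373% in KO and 0.0612% and 0.0527% in WT at steady state. No pair of the family passed at 24 h or 48 h, where 0.00% of all pairs did, and at an unadjusted p below 0.05 the family had 22 of 215 at 24 h and 53 at 48 h, beside 187 and 510 of all 3397 pairs. The count in the mean of the 3 depended on single libraries. It was 9 with the replicate block within each sampling, where 2.24% of all pairs passed. The 8 finer libraries hold 1 library per group at 24 h and 48 h, so no conclusion is drawn from their count.

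The most used partners were shared by some members and differed in others. TRAV4-4/DV10 was joined most to Traj49, Traj50 and Traj52, and its pair with Traj50 took 0.154% and 0.136% in KO and 0.117% and 0.115% in WT libraries at steady state. TRAV4-3 was joined most to Traj40, Traj31 and Traj32, TRAV4-2 to Traj31, Traj32 and Traj40, TRAV4D-4 to Traj32, Traj31 and Traj34, and TRAV4D-2 to Traj42, Traj32 and Traj31, by the mean share over the libraries that list the pair. By that mean TRAV4D-3 was joined most to Traj57, Traj56 and Traj31, but its leading partner changed between libraries. It was Traj57 and Traj31 in KO and Traj4 in both WT libraries (0.0636% and 0.0889%) at steady state, Traj56 and Traj57 in KO and Traj57 in both WT libraries at 24 h, and Traj32 and Traj40 in KO and Traj17 and Traj31 in WT at 48 h. Its pair with Traj57 took 0.0424% and 0.0363% in KO and 0.0255% and 0.0225% in WT at steady state, and 0.0904% and 0.288% in KO and 0.058% and 0.107% in WT at 24 h. KO was above WT for that pair at steady state. In the coarse libraries many family pairs stood at 0, for example 31 of the 43 partners of TRAV4D-4 in KO 24 h replicate 2, against 3 in KO 24 h replicate 1.

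Cells taken 48 h after tamoxifen had lower partner numbers than those taken at 24 h for all 5 tested members in both genotypes. The 48 h minus 24 h difference was -11.65 (SE 1.44, adjusted p = 8.63e-05) in KO and -13.47 (SE 1.44, adjusted p = 1.66e-05) in WT for TRAV4D-3, and -11.07 (adjusted p = 0.000265) in KO and -10.36 (adjusted p = 0.000274) in WT for TRAV4D-4. It was smaller for TRAV4-4/DV10, at -3.94 (SE 1.06, adjusted p = 0.00591) in KO and -4.23 (SE 1.06, adjusted p = 0.00356) in WT. All 5 members passed in both genotypes, where 82.3% of rows in KO and 91.1% in WT did. TRAV4-2 had -8.68 in KO and -9.73 in WT, and TRAV4-3 -8.78 in KO and -7.32 in WT. The difference of these changes between genotypes passed in 0 of 5 members, where 2.53% of rows passed in limma, and its values ran from -1.46 for TRAV4-3 to 1.82 for TRAV4D-3, with an SE of up to 2.46. Between copies, the 48 h minus 24 h difference was more negative in TRAV4D-4 than in TRAV4-4/DV10 by -7.13 in KO (adjusted p = 0.00713) and -6.13 in WT (adjusted p = 0.0062). For TRAV4D-3 and TRAV4-3 it was -2.87 in KO, which did not pass (adjusted p = 0.181), and -6.15 in WT (adjusted p = 0.00614). Of the 33 copy pairs 24.2% passed in KO and 57.6% in WT. The KO call of TRAV4D-4 was lost without KO 24 h replicate 2 (-4.74) or KO 48 h replicate 2 (-6.38), and the WT call of TRAV4D-3 without WT 24 h replicate 1 (-4.85).

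Shares of the members at 48 h and 24 h did not differ past the threshold without a block, in 0 of 5 members against 1.27% of the 79 rows in each genotype, while 1 member and 11 of 79 rows in KO, and 2 members and 13 rows in WT, had an unadjusted p below 0.05. The difference for TRAV4D-4 was 1.18 (SE 0.36, adjusted p = 0.168) in KO and 1.23 (SE 0.36, adjusted p = 0.146) in WT, beside a median of 0.28 in KO and 0.27 in WT over all rows, which centring each library brings to -0.04 and 0.01. With the replicate block within each sampling TRAV4D-4 was higher at 48 h in KO (adjusted p = 0.0014) and WT (adjusted p = 0.00105), and so was TRAV4-2 (1.11, adjusted p = 0.00351 in KO; 1.05, adjusted p = 0.0031 in WT). In WT that fit also gave a higher share of TRAV4D-3 (0.81, adjusted p = 0.0123) and a lower share of TRAV4-4/DV10 (-1.08, adjusted p = 0.00469), so that 2 of 5 members passed in KO and 4 of 5 in WT, where 45.6% and 59.5% of rows did. The ratio of TRAV4D-4 to TRAV4-4/DV10 was higher at 48 h than at 24 h in WT without the block, with a log2 difference of 2.31 (SE 0.59, adjusted p = 0.0173; 27.3% of the 33 pairs passed). That call was lost without WT 24 h replicate 1 (2.69), WT 24 h replicate 2 (1.94) or WT 48 h replicate 1 (1.92). In KO the same ratio differed by 1.55 (SE 0.59, adjusted p = 0.14), and passed with the block (adjusted p = 3.62e-08). That last value rests on a spread shared over the 33 pairs. The change of the ratio did not differ past the threshold between genotypes (-0.76, SE 0.83, adjusted p = 0.769), nor with the block (adjusted p = 0.0635). For the TRAV4D-3 to TRAV4-3 ratio it was -0.93, which did not pass without the block (adjusted p = 0.769) and passed with it (adjusted p = 0.0207), where 33.3% of pairs did, against 0.00% without. With the block that ratio was also higher at 48 h than at 24 h in WT (0.88, adjusted p = 0.000545) and not in KO (-0.05, adjusted p = 0.91).

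After tamoxifen the 2 libraries of a group differed more than at steady state in some members. At steady state the share in replicate 2 over that in replicate 1 lay between 0.852 and 1.28 for all 6 members. It was 2.52 in KO and 1.71 in WT at 24 h, and 3.92 in KO and 2.72 in WT at 48 h for TRAV4D-3. For TRAV4-2 it was 0.141 in KO and 0.198 in WT at 24 h, and 0.3 in KO and 0.375 in WT at 48 h. TRAV4D-2 had 0.234 in KO and 0.296 in WT at 24 h and 0.594 in WT at 48 h, and TRAV4D-4 lay between 0.631 and 0.74 in all groups after tamoxifen. The other members moved less evenly. TRAV4-4/DV10 had 1.43 in KO and 1.25 in WT at 24 h, and 2.11 in KO and 1.26 in WT at 48 h. Its WT values lay inside the steady-state range of all 6 members, but above its own steady-state ratios of 0.852 in KO and 0.987 in WT. TRAV4-3 had 0.976 in KO and 0.701 in WT at 24 h, and 1.31 in KO and 1.17 in WT at 48 h. The coarse resolution of replicate 2 moves with this difference, and its part in it was not tested.

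The Trav rows outside the family whose log2(percent + 0.01) over the 12 libraries was most like that of the family total were TRAV7-4 (Pearson's r = 0.66), TRAV15-2/DV6-2 (0.60) and TRAV7D-5 (0.57), as a description over libraries that share groups. In the row order TRAV4D-3 stands between TRAV9D-2 and TRAV12D-2 and its partner TRAV4-3 between TRAV9-2 and TRAV12-2. TRAV4D-4 stands between TRAV9D-4 and TRAV5D-4 and TRAV4-4/DV10 between TRAV9-4 and TRAV5-4, so both copies of each pair have neighbours of the same names but for the D.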

How the data were processed

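In the deposited tables each Trav and Traj combination has a fraction of the library's repertoire, per the file headers and the range of the values. Neither the aligner, the build, the counted unit nor the assignment of reads to near-identical copies is stated in the sources used here. Each fraction was divided by the total of its table, which makes the tables that sum to about 1.98 comparable in scale with the rest, and expressed in percent. The row order was that of the tables; TRAV4D-2 and TRAV7D-2, which the tables list in both orders, were put in the GRCm38 order. The mean partner Jα number weights each Traj number by its pair's share.

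A linear model with a mean for each of the 6 groups was fitted over the 12 libraries (limma 3.58.1, R 4.3.3; 6 residual degrees of freedom) on log2(percent + 0.01) for 79 rows, 3397 pairs and 33 copy ratios and on the mean partner number itself, with Benjamini-Hochberg adjustment at 0.05 over all features of a kind. The fits without a block were tested on simulated data, in the mean of the 3 samplings only. The simulated noise was independent between libraries, unlike the deviations described next, and the fits with a block were not tested in this way. The shared replicate numbers were checked by the correlation between genotypes of replicate 1 minus replicate 2. It was 0.72, 0.93 and 0.93 over rows at steady state, 24 h and 48 h, and 0.46, 0.65 and 0.56 over pairs. Fits of shares with a block within each sampling were therefore added beside the main fits, which have no block. After tamoxifen replicate 2 is also the coarse table in both genotypes, so pairing and resolution cannot be told apart there. The block within each sampling leaves 3 residual degrees of freedom. The empirical Bayes step of limma shares the spread over all features of a kind, so its p-values rest on more than these. For mean partner numbers the correlation was 0.84, 0.09 and 0.02, and their main results are those without a block.

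The members, windows, marker pairs and tests were chosen with earlier results of these data known. Pairs named are, per KO minus WT contrast, up to 5 family pairs that passed, with the largest change, and the 3 with the highest mean share for each member. Rows named outside the family are the 3 most correlated with its total. Alternatives were leaving out each library, the 8 finer libraries alone, blocks, pseudocounts of 0.1 and 0.001, filters on low shares, rescaling and centring. The 8 finer libraries hold 1 library per group at 24 h and 48 h, so that fit takes its spread from steady state alone.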

Additional observations from a re-analysis of the deposited data

How the results depend on the processing

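Of the results on the mean partner number, the counts in the mean of the 3 samplings, at 48 h and in the 48 h minus 24 h comparisons stayed within 1.5 times under all alternatives run; with single libraries left out 1 to 3 members passed at steady state and 0 to 5 at 24 h. The replicate block there changed no such count beyond that factor, but at single samplings the members that passed changed. With the block within each sampling, TRAV4-3 also passed at steady state (2.11, adjusted p = 0.05 after rounding) and at 48 h (adjusted p = 0.0127). The members that passed at 24 h and 48 h also changed in the 8 finer libraries, which hold 1 library per group there. The effect sizes were 4.42 for TRAV4-2 and 3.02 for TRAV4-4/DV10 at 24 h. At 48 h they were 3.41 for TRAV4-3 and 2.73 for TRAV4-4/DV10. Counts of shares depended on the setting. The replicate block within each sampling was added after seeing the data. With it 1 member passed at 24 h, 2 at 48 h and 4 in the mean of KO minus WT. For 48 h minus 24 h, 2 passed in KO and 4 in WT. One replicate block over all samplings gave 1 in WT, as did centring. With any 1 library left out 0 members passed in each of these. The TRAV4D-3 difference in share, -0.18 in the mean, was 0.04 without KO 24 h replicate 1, 0.15 without KO 48 h replicate 1 and 0.06 without WT 48 h replicate 2; without single libraries it lay between -0.50 and 0.15. That of TRAV4-2, -0.32, was 0.14 without KO 24 h replicate 2 and 0.07 without WT 24 h replicate 1, in a range of -0.78 to 0.14. The cause was not tested.

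Family pairs passing at steady state (1 in the main fit) numbered 0 with either replicate block, the filter at 0.01%, the pseudocount of 0.001% or centring, 6 with a pseudocount of 0.1%, 29 in the 8 finer libraries (10.8% of all pairs) and 0 to 5 with single libraries left out. At 48 h (0) they numbered 7 with the block within each sampling (1.65% of all pairs), 51 in the finer libraries (20.0%), 8 with the pseudocount of 0.1% and 0 to 17 without single libraries. In the mean (5) they numbered 9, 110 and 15 under those settings, 0 with the filter, 1 with the pseudocount of 0.001%, 1 with centring and 0 to 22 without single libraries. Over all pairs, 37 passed in the mean, against 76 with the block within each sampling and 1248 in the finer libraries.

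Of the 2 copy ratios, both passed in the mean with the block within each sampling (0 in the other settings that keep 2 libraries per group). For 48 h minus 24 h in KO, 1 passed with either block, where 39.4% of the 33 pairs passed with the block within each sampling. In WT 2 passed with the block within each sampling (69.7% of pairs), and the call without a block was lost without some single libraries. In KO the TRAV4D-3 to TRAV4-3 change of -0.05 became 0.62 without KO 24 h replicate 2 and 0.73 without KO 48 h replicate 1, in a range of -0.83 to 0.73. For the copy difference in partner number, the finer libraries are left out, as they hold 1 library per group at 24 h and 48 h. Of the 2 copy differences, 1 passed at steady state with the block within each sampling, where 42.4% of the 33 pairs did. It was also 1 with the single replicate block over all samplings or the filter at 0.1%, given without the share of all pairs. With single libraries left out, the number that passed changed at steady state, 24 h and 48 h and for 48 h minus 24 h in both genotypes. Unknown depth and the coarse tables limit every value of a single pair. The counts of pairs in the finer libraries take their spread from steady state alone. At 48 h and in the mean these counts rest on 1 library per group after tamoxifen, and no conclusion is drawn from them.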
